A study of Homo sapiens with 18 samples.

Results

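The comparison set 3 arrays of A549 cells given TGFβ and collected at 8 h against 3 arrays of untreated A549 cells, with a control siRNA (siControl) in both groups. These were 6 of the 18 arrays of the study, taken by their labels, and the change is described over all 18377 genes that a probe set names by 1 symbol. A549 is an established human lung adenocarcinoma line with epithelial features. All cells were transfected, grown in 10% fetal bovine serum and then starved of serum. The treated cells received 250 pM TGFβ for 1 h, were washed, and stayed a further 7 h in medium with 0.2% serum before RNA was extracted. Medium with 0.2% serum is listed for the untreated cells as well. The untreated cells carry no collection time in their labels, so a difference in time without ligand cannot be told apart from the ligand. The other 12 arrays, cells with siRNA against the atypical kinases PKCiota and PKCzeta (siPKCiz) and cells collected at 24 h, share the estimate of the spread. The labels call the samples biological replicates, and nothing in them says that the cultures were separate in other ways.

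TGFβ is a secreted cytokine that binds the type II receptor TGFBR2, which then phosphorylates the type I receptor TGFBR1. The active receptor phosphorylates SMAD2 and SMAD3, which join SMAD4, enter the nucleus and act on genes together with partner transcription factors. In lung carcinoma cells the cytokine is known for epithelial to mesenchymal transition (EMT), in which cells lose junctions and gain matrix and contractile proteins, and for a negative feedback through induced inhibitors such as SMAD7.

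Each gene is given by its RMA intensity, a linear scale of probe brightness as the authors deposited it, and by its log2 change, treated minus untreated. A value after ± is the standard error that limma gave the change, from n = 3 arrays per group. Genes count as called where limma's p, adjusted by Benjamini and Hochberg's method for all genes tested, was under 0.05. The 6 arrays had similar medians, and replicates correlated across genes at 0.9933 to 0.9962 in treated cells and at 0.9917 to 0.9965 in untreated cells. Between the groups the range was 0.9814 to 0.9892. Untreated replicate 1 stood apart for a number of abundant and secretory transcripts: MUC5B, a gel-forming mucin, read 165, 187 and 202 in treated cells and 527, 209 and 213 in untreated cells. Of 10 markers of A549 cells all were measured, and their summed intensity was 46418 to 49858 in treated arrays and 45029 to 62081 in untreated arrays. Of these markers 4 fell, CDH1, SOX2, AKR1C1 and KRT19, and KRT7 rose, a call that was lost with 1 array left out. The 9 alveolar type 2 markers measured summed to 1968 to 2190 in treated arrays and 2007 to 2224 in untreated arrays, and 1 fell, ABCA3, a call also lost with 1 array left out. Markers of other cells were measured too. The 9 leukocyte markers summed to 1591 to 1830 in treated arrays and 1572 to 1705 in untreated arrays, with 1 risen, a call lost with 1 array left out, and 1 fallen, CD14. The 8 endothelial markers summed to 632 to 694 in treated arrays and 634 to 693 in untreated arrays, with TEK risen. The 10 fibroblast markers summed to 1912 to 2154 in treated arrays and 1535 to 1698 in untreated arrays, and COL1A1, itself a gene that TGFβ is known to induce, was the member that rose. No marker is read as 0 on this scale, and in bulk RNA fewer cells of a type and less RNA per cell cannot be told apart.

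In total 2087 genes (11.4% of those tested) were called, of which 951 (5.17%) rose and 1136 (6.18%) fell. The typical change was small. The median log2 change was 0.51 among the risen and -0.47 among the fallen genes, against 0.0022 over all genes. A change of at least 2-fold was seen in 126 risen genes (0.686%) and 88 fallen genes (0.479%), and one of at least 4-fold in 10 and 2 genes. The treated and untreated arrays did not overlap in 25.3% of all genes, in 99.5% of the risen genes and in 98.3% of the fallen ones. With each of the 6 arrays left out in turn, 1132 of the 2087 genes were called every time, among them 203 of the 214 called with a change of at least 2-fold. The size of the called set and the balance of rises and falls rested on the arrays used. Without replicate number 1 of every group 2917 genes were called (1049 risen, 1868 fallen). Without number 2 it was 681 (390 risen, 291 fallen), and without number 3 it was 802 (436 risen, 366 fallen).

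**Figure D1:**
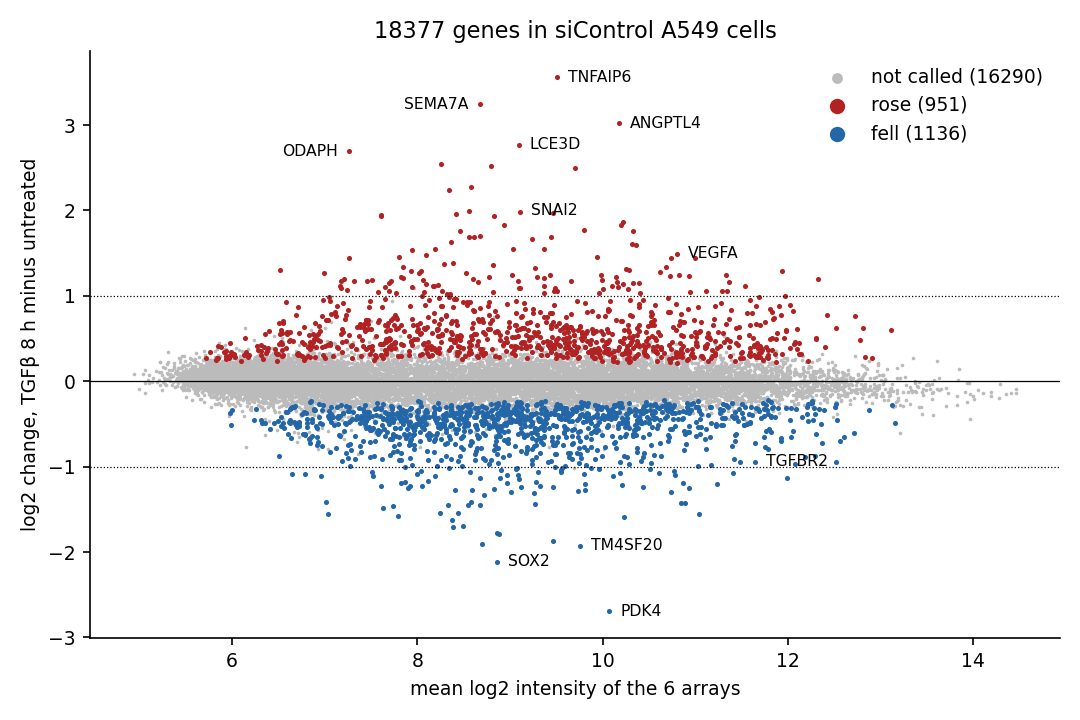
Log2 change (y axis, TGFβ 8 h minus untreated, siControl) against the mean log2 intensity of the 6 arrays (x axis), with 1 point per gene; risen genes are red, fallen genes blue, genes not called grey, and dotted lines mark a 2-fold change. Rises reach 3.56 (TNFAIP6) and falls -2.69 (PDK4), and called genes occur over most of the range of intensity.

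The leading rises and falls were named from called genes without overlap of the arrays, so their lack of overlap follows from that choice. Of the 10 genes with a rise of at least 4-fold, 4 are given by array. TNFAIP6, which encodes the hyaluronan-binding protein TSG-6, had an intensity of 1898, 2810.5 and 2918 in treated cells and of 140.3, 247 and 276 in untreated cells. That is a log2 change of 3.56 ± 0.45 (adjusted p = 4.21e-05), with the lowest treated array far above the highest untreated one. SEMA7A, a semaphorin held at the membrane by a lipid anchor, read 1862, 1111 and 963 in treated cells against 122, 134 and 145 in untreated cells (3.24 ± 0.27; adjusted p = 1.52e-06). The treated replicates of SEMA7A spread more than the untreated ones, without overlap. ANGPTL4, an inhibitor of lipoprotein lipase, read 4128, 2839.7 and 3048 in treated cells against 360.1, 373 and 499 in untreated cells (3.02 ± 0.37; adjusted p = 3.44e-05). LCE3D, a protein of the cornified envelope of skin, read 1359, 1364 and 1576 in treated cells and 158, 252 and 231 in untreated cells (2.77 ± 0.27). R3HDML, TMEM88, the xylosyltransferase GXYLT2, ODAPH and a pair of Ras activators, RASGRP1 and RASGRP3, made up the other 6, with log2 changes between 2.69 and 2.24.

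Also among the largest rises were SLN, sarcolipin, a small inhibitor of the calcium pump of the sarcoplasmic reticulum (1.97 ± 0.27), and MEDAG (1.94 ± 0.24). GAL, the neuropeptide galanin, read 1269, 769 and 807 in treated cells and 200.4, 311 and 283 in untreated cells (1.83 ± 0.23; adjusted p = 3.53e-05). MXD1, a repressor that opposes the Myc proteins, read 2123, 2292 and 2241 in treated cells against 696, 613 and 575 in untreated cells (1.82 ± 0.19; adjusted p = 8.3e-06). All treated arrays of MXD1 lay above all untreated ones. OLFM2, a secreted olfactomedin protein, had the lowest adjusted p of the genes named here as leading, at 3.9e-07, with 2635, 2144 and 2353 in treated cells and 589, 744 and 774 in untreated cells (1.76 ± 0.12). CHRNA9, an acetylcholine receptor subunit (1.75 ± 0.17), and NXPH4, a neurexin ligand (1.69 ± 0.16), followed.

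The falls were shallower, and 2 genes passed 4-fold. PDK4, the kinase that shuts off pyruvate dehydrogenase, read 459.6, 350.0 and 469 in treated cells and 3139.7, 2539 and 2556 in untreated cells (-2.69 ± 0.32; adjusted p = 2.83e-05). SOX2, a transcription factor of stem and foregut cells, read 242, 209.7 and 219 in treated cells and 1004, 904 and 997 in untreated cells (-2.12 ± 0.39; adjusted p = 0.00128). In both genes every treated array lay far below the lowest untreated array. TM4SF20, a membrane protein of the tetraspan group, followed with 442, 568 and 349.6 in treated cells against 1718, 1808 and 1546 in untreated cells (-1.93 ± 0.23). GPCPD1, a phosphodiesterase of glycerophosphocholine, fell by 1.87 ± 0.28, and RAB27B, a small GTPase of vesicle secretion, read 1424, 1218 and 1076 in treated cells and 3633, 3445 and 3754 in untreated cells (-1.55 ± 0.23). CAVIN2, a coat protein of caveolae, fell by 1.58 ± 0.23. NR5A2, a nuclear receptor of liver and gut, fell by 1.43 ± 0.19, and AGR2, a disulfide isomerase of secretory cells, by 1.42 ± 0.26.

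**Figure D2:**
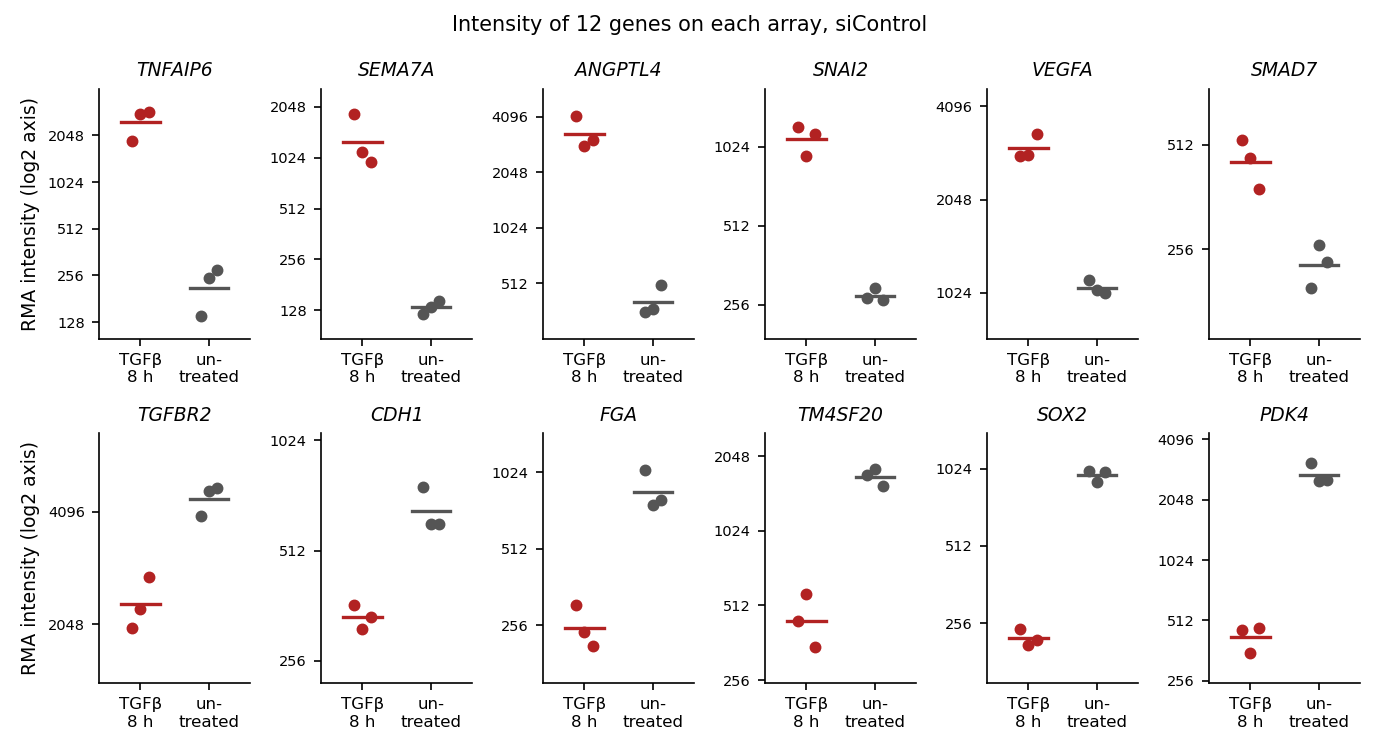
RMA intensity (log2 axis, a different range in each panel) of 12 genes on each array, with TGFβ 8 h (red) left of untreated (grey); points are the 3 arrays and lines their geometric mean. The groups do not overlap in any of the 12 panels, and TNFAIP6 shows the widest gap. The leading genes among them were taken from called genes without overlap, so this adds nothing to their calls.

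The same treatment was given to cells with siPKCiz. Those arrays gave no value to the change above, but they share its estimate of the spread, so the calls of the arms are not independent. There 1191 genes (6.48%) were called, of which 575 (3.13%) rose and 616 (3.35%) fell. Of the 951 genes risen in siControl, 467 (49.1%) were also called as risen in siPKCiz, and these were 81.2% of those risen there. Of the 1136 fallen genes, 473 (41.6%) were also called as fallen, or 76.8% of those fallen in siPKCiz. Direction was shared more widely: 922 (97.0%) of the risen and 1126 (99.1%) of the fallen genes had the same sign in siPKCiz, and 0 were called by limma in the opposite direction. The median log2 change of the risen set was 0.376 in siPKCiz and that of the fallen set -0.339. Since the sets were chosen by their change in siControl, smaller values elsewhere follow in part from the choice. The test of the difference between the arms called 0 genes with limma, while 625 had an unadjusted p under 0.05 and the lowest adjusted p was 0.9997. Among the leading genes ODAPH was at 2.69 ± 0.46 in siControl and at 0.91 in siPKCiz, and SNAI2 at 1.98 ± 0.18 and 2.18. Neither difference passed the test.

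**Figure D3:**
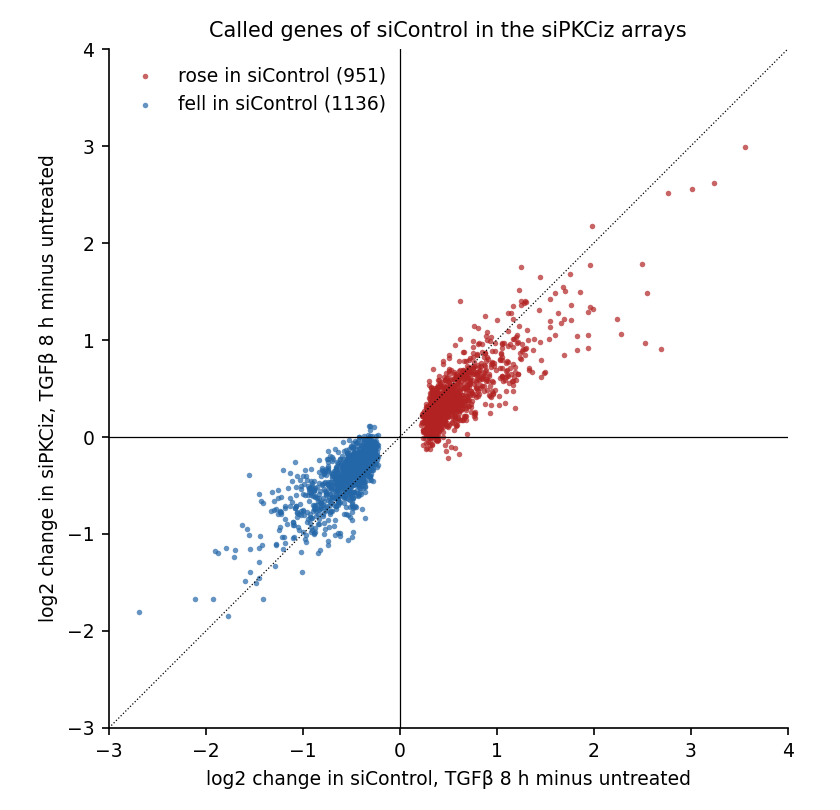
Log2 change at 8 h in siPKCiz arrays (y axis) against that in siControl arrays (x axis) for the 951 risen (red) and 1136 fallen (blue) genes of siControl; the dotted line marks equal change. Nearly all points lie in the lower left or upper right corner (97.0% of the risen, 99.1% of the fallen), and the median of each set lies nearer to 0 in siPKCiz (0.376 and -0.339).

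Components of the TGFβ pathway itself moved in both directions. Of 18 receptors and signalling SMADs measured, 3 rose and 4 fell (16.7% and 22.2%, against 5.17% and 6.18% of all genes), with a median log2 change of -0.02. TGFBR1, the type I receptor, read 4456, 4723 and 5286 in treated cells against 2388, 2917 and 2986 in untreated cells (0.81 ± 0.15; adjusted p = 0.00165). TGFBR2, the type II receptor that binds the ligand first, read 2001, 2252 and 2744 in treated cells against 3976, 4642 and 4735 in untreated cells (-0.94 ± 0.11; adjusted p = 3.14e-05). The receptor pair thus changed in opposite directions, each without overlap of the arrays. BMPR2, the type II receptor for bone morphogenetic proteins (BMPs), read 6339.7, 8890.2 and 8383 in treated cells and 2933, 3951 and 3397 in untreated cells (1.20 ± 0.19; adjusted p = 0.000298). The type I receptor ACVR1 rose by 0.50 ± 0.074. The co-receptor TGFBR3, betaglycan, fell to 235, 186 and 183 in treated cells, against 725, 633 and 597 in untreated cells (-1.70 ± 0.23; adjusted p = 8.84e-05). SMAD2 fell by 0.40 ± 0.097 (adjusted p = 0.0094), and ACVR1B and ACVRL1 were not called, at -0.18 and 0.11. In siPKCiz TGFBR1 was at 1.12, TGFBR2 at -0.66, TGFBR3 at -1.17 and BMPR2 at 1.03, all called there too.

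The inhibitors that TGFβ is known to induce against its own signal rose in 6 of 14 (42.9%, against 5.17% of all genes). None was called as fallen by limma (0 lower at an unadjusted p under 0.05). The risen count stayed at 6 with any 1 of the 6 arrays left out. SMAD7, which blocks TGFBR1, read 529, 469.6 and 381 in treated cells against 198, 264 and 234 in untreated cells (0.98 ± 0.15; adjusted p = 0.000192). SKIL, a SMAD co-repressor, read 4107, 3973 and 4817 in treated cells against 2019, 2456 and 2215 in untreated cells (0.95 ± 0.14), and its relative SKI rose by 0.59 ± 0.091. PMEPA1, a membrane protein that binds SMAD2 and SMAD3, rose by 1.00 ± 0.15. The ubiquitin ligases SMURF2 (0.89 ± 0.11) and SMURF1 (0.59 ± 0.14) rose as well. SMAD6 and TGIF1 were not called, at -0.20 and -0.08.

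Ligands, carriers and antagonists of the superfamily rose in 13 of 27 (48.1%) and fell in 4. NOG, noggin, which traps BMPs outside the cell, read 247, 189.5 and 199 in treated cells against 77.7, 110.5 and 108 in untreated cells (1.11 ± 0.17; adjusted p = 0.000242). FSTL3, which binds activins, read 1952, 2012 and 1856 in treated cells against 763, 1048 and 1066 in untreated cells (1.03 ± 0.16), and the activin subunit INHBA itself rose by 0.95 ± 0.23. Both traps were higher in every treated array than in any untreated one. BMP4 fell to 265, 206 and 212 in treated cells, against 567, 574 and 721 in untreated cells (-1.45 ± 0.16; adjusted p = 1.26e-05). GDF15, a distant superfamily cytokine of stressed cells, read 699, 714 and 663 in treated cells and 3187, 1592 and 1784 in untreated cells (-1.59 ± 0.32; adjusted p = 0.00223). Untreated replicate 1 held the highest GDF15 value. BMP1, a protease that trims procollagens, rose by 0.50 ± 0.10. BMP2 was not called, at 0.28. Of the 4 ID genes, repressors that BMP signals induce, ID1 rose (1423, 1356 and 1301 in treated cells, 844, 739 and 832 in untreated cells; 0.76 ± 0.17). ID2 fell by 0.74 ± 0.18, a call that was lost without untreated replicate 1, and ID3 and ID4 were not called.

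Among 28 factors of the AP-1, EGR, KLF and NR4A families, 8 rose (28.6%) and 3 fell (10.7%), against 5.17% and 6.18% of all genes. JUNB read 2512, 3059 and 2877 in treated cells against 1094, 1167 and 1292 in untreated cells (1.25 ± 0.19; adjusted p = 0.000241), and its partner JUN read 1972, 1904 and 1870.1 in treated cells against 771, 829 and 1012 in untreated cells (1.15 ± 0.14; adjusted p = 3.16e-05). FOSB (0.76 ± 0.093) and KLF7 (0.65 ± 0.099) rose too. NR4A2, an orphan nuclear receptor of the immediate early class, read 152, 245 and 266 in treated cells against 1184, 611 and 716 in untreated cells (-1.90 ± 0.30; adjusted p = 0.000364). Thus immediate early factors lay on both sides. JUND and FOSL2 were not called, at -0.22 and -0.20.

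Transcription factors of EMT rose in 4 of 12 (33.3%) and fell in 1 (8.3%), against 5.17% and 6.18% of all genes. SNAI2 (Slug), a repressor of the E-cadherin gene, read 1214, 943 and 1142 in treated cells against 270.5, 295 and 266 in untreated cells (1.98 ± 0.18; adjusted p = 1.93e-06). SNAI1 (Snail) read 856, 556 and 647 in treated cells and 157, 171 and 196 in untreated cells (1.96 ± 0.18; adjusted p = 2.45e-06). ZEB1 rose by much less, 0.40 ± 0.093, with 1375, 1274 and 1349.5 in treated cells against 1045, 974 and 1014 in untreated cells. TCF4 rose by 0.58 ± 0.12, TWIST1 fell by 0.42 ± 0.089, and ZEB2 and TCF3 were not called, at -0.18 and 0.21. Factors of epithelial and endodermal lineages went the other way, with 7 of 24 fallen (29.2%) and 1 risen, the last a call that 5 of the 6 left-out arrays removed. Beside SOX2, EHF, a factor of the ETS family in airway epithelium, read 90.3, 142 and 129 in treated cells and 449, 278 and 288 in untreated cells (-1.48 ± 0.30; adjusted p = 0.00282). FOXA2, a pioneer factor of lung and liver, read 675, 674 and 562 in treated cells against 1297, 1021 and 1104 in untreated cells (-0.84 ± 0.12; adjusted p = 0.00015). ELF3 (-0.71 ± 0.15), KLF5 (-0.48 ± 0.11) and SOX9 (-0.47 ± 0.098) fell, whereas FOXA1 was not called, at 0.15 ± 0.099.

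Secreted growth factors were prominent among the risen genes: of 32 in the EGF, PDGF, VEGF and FGF families and their relatives, 10 rose (31.2%) and 6 fell. VEGFA, the main growth factor of blood vessels, read 2834, 2848 and 3327 in treated cells against 1128, 1042 and 1021 in untreated cells (1.49 ± 0.26; adjusted p = 0.000756). PDGFB read 730.2, 660.1 and 884 in treated cells against 148, 194 and 238 in untreated cells (1.99 ± 0.26; adjusted p = 5.68e-05), and PDGFA read 1122, 1093 and 947 in treated cells against 504, 519 and 453 in untreated cells (1.10 ± 0.12; adjusted p = 1.16e-05). Both PDGF chains rose in every treated array. FGF1 (1.30 ± 0.26) and the matricellular factors CCN1 (1.45 ± 0.22) and CCN2 (1.25 ± 0.18) rose with them. EGF and TGFA, ligands of the EGF receptor, were not called, at 0.19 and -0.12. The count of fallen members was 3 without treated replicate 2 or without untreated replicate 1.

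Feedback genes of the MAP kinase pathway fell in 6 of 21 (28.6%) and 1 rose. SPRY1, a Sprouty inhibitor of receptor tyrosine kinases, read 91.8, 111 and 129 in treated cells against 325, 172 and 185 in untreated cells (-0.99 ± 0.21; adjusted p = 0.0041). The phosphatase DUSP4 read 399, 471 and 457 in treated cells and 835, 837 and 826 in untreated cells (-0.92 ± 0.20; adjusted p = 0.0047). DUSP6 (-0.66 ± 0.14) and SPRY2 (-0.42 ± 0.093) fell, and DUSP7 rose by 0.84 ± 0.15. DUSP1, DUSP3 and DUSP5 were not called, at 0.10, 0.10 and -0.42. MAP2K6, a kinase that activates p38, fell to 249.5, 265 and 249.6 in treated cells, against 1066, 831 and 768 in untreated cells (-1.79 ± 0.24; adjusted p = 8.06e-05).

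Notch and Wnt genes changed as well. In the Notch pathway 5 of 18 rose (27.8%) and 1 fell (5.6%), against 5.17% and 6.18% of all genes. The risen count was 3 without untreated replicate 1. The target HEY1 read 156, 144 and 152 in treated cells against 105, 96.5 and 100.3 in untreated cells (0.58 ± 0.086; adjusted p = 0.000193), and the ligand JAG1 (0.44 ± 0.087) and the receptor NOTCH2 (0.38 ± 0.088) rose. The ligand DLL4 fell by 0.55 ± 0.13 (adjusted p = 0.00872). In the Wnt pathway 6 of 35 rose and 6 fell (17.1% each), with 3 fallen without treated replicate 1 or 3. TMEM88, an inhibitor that binds Dishevelled, read 834, 938 and 770.4 in treated cells against 126, 171 and 244 in untreated cells (2.28 ± 0.35; adjusted p = 0.000265). NKD1, another Dishevelled inhibitor, rose by 0.87 ± 0.14. The ligands WNT9A (1.06 ± 0.20) and WNT5B (0.84 ± 0.16) rose, and LGR4, a receptor for R-spondins, fell to 2154, 1589 and 1920.3 in treated cells, against 4141, 4017 and 3661 in untreated cells (-1.07 ± 0.15). WNT3 and WNT4 were not called, at 0.25 and 0.10.

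Guidance genes followed the background on the rising side: of 42 semaphorins, plexins, ephrins and netrins 2 rose (4.8%), SEMA7A and NRP2, and 6 fell (14.3%). The neuropilins, co-receptors for semaphorins and VEGF, split. NRP2 read 4102, 3589 and 4534 in treated cells against 2268, 2631 and 2786 in untreated cells (0.67 ± 0.15; adjusted p = 0.00532), and NRP1 read 1409, 1419 and 1383 in treated cells against 2040.4, 2182 and 1975 in untreated cells (-0.56 ± 0.075; adjusted p = 8.06e-05). SEMA3A, a ligand of NRP1, fell to 1307, 977 and 1014 in treated cells, against 2643, 2739 and 2661 in untreated cells (-1.30 ± 0.21). SEMA4G (-1.10 ± 0.19) and SEMA4D (-0.50 ± 0.081) fell, and SEMA3B and SEMA3E were not called, at -0.26 and 0.23.

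A pair of Ras activators stood among the largest rises. RASGRP1, an exchange factor that loads Ras with GTP, read 837, 783 and 620.5 in treated cells against 72.7, 159.8 and 175 in untreated cells (2.55 ± 0.38; adjusted p = 0.000218). RASGRP3 read 1239, 976 and 994 in treated cells and 132, 200.1 and 239 in untreated cells (2.53 ± 0.38; adjusted p = 0.000195). Untreated replicate 1 was the lowest array for both. The arrays of the groups did not overlap in either gene.

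Actin and contractile proteins rose in 11 of 32 (34.4%) and fell in 3, and 10 or 11 rose with 1 array left out. TAGLN, the actin-binding protein SM22 of smooth muscle, read 789.9, 662 and 776 in treated cells against 180.3, 262 and 249 in untreated cells (1.70 ± 0.18; adjusted p = 1.13e-05). TNS1, tensin, which links actin to integrins, read 1336, 1129 and 1305 in treated cells against 287, 443 and 464 in untreated cells (1.69 ± 0.19; adjusted p = 1.55e-05). CNN1 (1.17 ± 0.17), CALD1 (0.95 ± 0.10) and PDLIM7 (0.81 ± 0.11) rose as well. ACTA2, smooth muscle actin, a marker of myofibroblasts, was not called, with 638, 747 and 699 in treated cells and 640.2, 819 and 1122 in untreated cells (-0.27 ± 0.17). ACTG2 and ACTN1 were not called either, at 0.20 and 0.19, and TNS3 fell by 0.62 ± 0.13. Chosen after their values were seen, MYOCD, a cofactor of serum response factor, read 3591, 2479 and 2512 in treated cells against 709.5, 1199.6 and 1313 in untreated cells (1.44 ± 0.23), and SRF, the factor itself, rose by 0.60 ± 0.075 (adjusted p = 4.22e-05). ACTC1, cardiac actin, read 303, 423 and 389.7 in treated cells against 161, 125 and 120.4 in untreated cells (1.46 ± 0.22; adjusted p = 0.000201).

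Serum response factor binds an element known as the CArG box. It was searched in 1 promoter per gene, from 250 bases before to 50 after the start. Any other start of a gene, and bases outside this window, were not searched. The pattern of the box reads the same on both strands in this search, and overlap with the other motifs was not checked. In RefSeq promoters of GRCh38.p14, 14208 of the tested genes had a match by gene ID. A CArG box was present in 1.2% of them, in 13 of 743 (1.7%) of all risen genes and in 11 of 909 (1.2%) of all fallen genes. At a change of at least 2-fold it was in 4 of 95 (4.2%) of the risen genes (ACTC1, ITGB6, PDGFA and FSTL3) and in 0 of 70 of the fallen ones. The actin list had it in 6 of 29 (20.7%). Those 6 were CNN2 and FHL2, which rose by 0.54 ± 0.11 and 0.52 ± 0.084, MYLK, which fell by 0.42 ± 0.12 with a call lost with 1 array left out, and ACTG1, ACTG2 and TPM4, which were not called. The element was thus present in actin genes that rose, fell and were not called. For comparison, the SMAD-binding letters CAGAC on either strand were in 52.6% of the risen and 41.4% of the fallen promoters at 2-fold and in 44.0% of all tested, the AP-1 letters TGANTCA in 8.4%, 8.6% and 5.6%, and the E-box CACCTG on either strand in 22.1%, 21.4% and 19.6%. The 150 bases before the start of 3 risen genes are given next, with CArG boxes in capitals, because they show the element in genes of both the actin group and the factor itself.
ACTC1 (GRCh38.p14, minus strand, chr15:34795550-34795699; box beginning 109 bases before the start): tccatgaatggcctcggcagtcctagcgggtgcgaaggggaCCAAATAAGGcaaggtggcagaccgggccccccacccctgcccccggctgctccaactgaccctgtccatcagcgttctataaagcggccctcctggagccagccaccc
SRF (plus strand, chr6:43171119-43171268; boxes beginning 30 and 10 bases before the start): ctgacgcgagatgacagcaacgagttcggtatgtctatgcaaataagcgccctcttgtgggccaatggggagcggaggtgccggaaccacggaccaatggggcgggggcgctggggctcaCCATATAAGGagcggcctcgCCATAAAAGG
CNN2 (plus strand, chr19:1026458-1026607; box beginning 89 bases before the start): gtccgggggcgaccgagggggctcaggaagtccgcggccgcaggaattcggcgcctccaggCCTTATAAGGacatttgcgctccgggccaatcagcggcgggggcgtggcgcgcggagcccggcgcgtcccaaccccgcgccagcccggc

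Matrix genes rose without a called fall in 3 lists. Of 29 collagen chains 6 rose (20.7%), of 26 collagen modifying enzymes 5 rose (19.2%), and of 32 MMPs, ADAMs and TIMPs 7 rose (21.9%). The risen share over all genes was 5.17%. At an unadjusted p under 0.05 limma had 4, 2 and 1 members of these lists lower, and 1 collagen was called as fallen without treated replicate 3 or untreated replicate 2. COL4A1, a chain of basement membrane, read 956, 844 and 882 in treated cells against 250.1, 331 and 346 in untreated cells (1.54 ± 0.19; adjusted p = 3.67e-05), and its divergently transcribed neighbour COL4A2 rose by 0.91 ± 0.17. COL1A1 read 922, 768 and 762 in treated cells against 322, 408 and 362 in untreated cells (1.17 ± 0.17), whereas COL1A2 and COL3A1 were not called, at 0.13 and -0.14. The cross-linking oxidases LOX (118, 118 and 119 in treated cells, 65.9, 76.5 and 79.4 in untreated cells; 0.68 ± 0.16) and LOXL1 (0.43 ± 0.098) rose. LOXL2 and LOXL4 were not called, at 0.17 and 0.31.

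Among proteases and their inhibitors, MMP2, gelatinase A, read 2260.3, 1986 and 2617 in treated cells against 424, 709 and 817 in untreated cells (1.86 ± 0.27; adjusted p = 0.000144). TIMP3, an inhibitor bound to matrix, read 944, 863 and 870.2 in treated cells against 187, 250.3 and 269 in untreated cells (1.94 ± 0.16; adjusted p = 1.52e-06), and TIMP2 rose by 0.60 ± 0.11. Protease and inhibitor genes thus rose together. ADAM19, a sheddase, rose by 1.44 ± 0.16, MMP10 by 1.17 ± 0.16 and MMP9 by 0.78 ± 0.13. MMP1 had non-overlapping arrays (238, 245 and 431 in treated cells, 135, 131 and 203 in untreated cells) but was not called (0.94 ± 0.30; adjusted p = 0.0538). In the plasminogen system 4 of 12 rose (33.3%, against 5.17% of all genes). Among them were SERPINE2 (0.73 ± 0.13), the urokinase receptor PLAUR (0.57 ± 0.10) and tissue factor F3 (0.77 ± 0.18). TFPI, the inhibitor of tissue factor, fell to 2066, 1984 and 2183 in treated cells, against 4069, 3537 and 2995 in untreated cells (-0.76 ± 0.18; adjusted p = 0.00839).

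Of 40 laminins, fibulins and other matrix glycoproteins 5 rose (12.5%) and 4 fell (10.0%), against 5.17% and 6.18% of all genes. The fallen count was 1 without treated replicate 2 or untreated replicate 2 and 2 without untreated replicate 3. Next to TNFAIP6, THBS1, thrombospondin, which can release TGFβ from its latent form, read 7462, 6569 and 7599 in treated cells against 3529, 4574 and 4642 in untreated cells (0.77 ± 0.16; adjusted p = 0.00364), and TGFBI rose by 0.60 ± 0.13. FN1, fibronectin, was not called, with 3829, 3698 and 4572 in treated cells and 5019.8, 3869 and 4024 in untreated cells (-0.09 ± 0.13). Of 38 genes of proteoglycans and glycosaminoglycan synthesis 7 rose (18.4%), but 3 without untreated replicate 1 and 4 without untreated replicate 2. The 3 risen members whose calls held with any 1 array left out were enzymes, of which XYLT1 and CHST11 act in glycosaminoglycan synthesis. GXYLT2 read 2198, 1824 and 1925 in treated cells against 234, 443 and 416 in untreated cells (2.50 ± 0.26; adjusted p = 8.73e-06), XYLT1, which starts the chains, read 309, 349 and 395 in treated cells against 142, 157 and 153 in untreated cells (1.21 ± 0.19), and the chondroitin sulfotransferase CHST11 rose by 1.17 ± 0.17. VCAN and DCN, core proteins, were not called, at 0.28 and 0.16.

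Integrins rose in 4 of 19 (21.1%) and fell in 3 (15.8%), against 5.17% and 6.18% of all genes. The fallen count was 1 without treated replicate 2 or untreated replicate 1. ITGA5, the fibronectin receptor chain, read 5682, 4007 and 4389.7 in treated cells against 2348, 2174 and 2547 in untreated cells (0.98 ± 0.11; adjusted p = 1.94e-05), and ITGB3 read 404, 417 and 514 in treated cells against 193, 218 and 231 in untreated cells (1.05 ± 0.16). ITGA2 rose by 0.62 ± 0.15, a call lost without treated replicate 3, when 2 integrins were called as risen. ITGB6, whose product activates latent TGFβ, read 899.6, 943 and 1100.5 in treated cells against 188, 547 and 576 in untreated cells. Its change of 1.33 ± 0.42 was barely called (adjusted p = 0.0491), it lay between 0.80 and 1.61 with 1 array left out, and it was not called without any 1 of the treated arrays or without untreated replicate 1. ITGA10 fell by 0.63 ± 0.13, and ITGA4 and ITGA7 were not called, at 0.14 and 0.23.

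Junction proteins fell in 12 of 36 (33.3%) and rose in 4, with 10 to 12 fallen when 1 array was left out. CDH1, E-cadherin, the adhesion molecule of epithelial junctions, read 364, 312 and 337 in treated cells against 765, 607 and 605 in untreated cells (-0.96 ± 0.17; adjusted p = 0.000933). CXADR, a tight junction protein, read 1566, 1304 and 1591 in treated cells against 3380.4, 2826 and 2700.5 in untreated cells (-1.0 ± 0.19), and CLDN1 fell by 0.72 ± 0.082. The polarity protein PARD6A (-0.78 ± 0.14) and the intestinal cadherin CDH17 (-1.10 ± 0.25) fell too. CLDN4, another claudin, went against them with 424, 479.7 and 366 in treated cells against 149.9, 145 and 139 in untreated cells (1.54 ± 0.20; adjusted p = 4.6e-05). CDH2, N-cadherin, rose by 0.37 ± 0.072, with 4088, 4022 and 4269 in treated cells against 3225, 3308 and 3062 in untreated cells. VIM, vimentin, read 6034, 6246 and 5804 in treated cells against 5049.8, 4304 and 3579.9 in untreated cells (0.50 ± 0.11; adjusted p = 0.00442). EPCAM was not called, with 612, 503 and 533 in treated cells against 1310.0, 767 and 494 in untreated cells (-0.53 ± 0.27).

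Keratins and cornified envelope genes rose in 5 of 36 (13.9%) and fell in 1 (2.8%), against 5.17% and 6.18% of all genes. Only 2 or 3 rose without treated replicate 1 or 2 or without any of the untreated replicates. LCE3E, a neighbour of LCE3D in the family, read 377, 503 and 498 in treated cells against 166, 161 and 161 in untreated cells (1.48 ± 0.31; adjusted p = 0.00353). These genes are close relatives, and whether their probes share signal was not tested. The simple epithelial keratins KRT8 and KRT18 were not called, each at -0.03, and KRT19 fell by 0.45 ± 0.12, with -0.36 and no call without treated replicate 3.

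A549 cells make some plasma proteins that are typical of liver, and 8 of 40 such genes fell (the background was 6.18% of all genes). None was called as risen by limma, and 1 was higher at an unadjusted p under 0.05. The 3 fibrinogen chains fell together. FGA read 308, 240.0 and 213 in treated cells against 1039, 759 and 797 in untreated cells (-1.77 ± 0.30; adjusted p = 0.000601), FGB read 696, 486 and 475 in treated cells against 2108, 1053 and 1055 in untreated cells (-1.29 ± 0.28; adjusted p = 0.00416), and FGG fell by 0.74 ± 0.22 (-0.51 to -0.88 with 1 array left out, and called only without untreated replicate 2). Untreated replicate 1 was highest for each chain. The fibrinogen-like FGL1 read 282, 219.5 and 247 in treated cells against 789, 611 and 644 in untreated cells (-1.45 ± 0.18; adjusted p = 4.26e-05). Complement C5 (-0.95 ± 0.18), the apolipoprotein APOH (-0.82 ± 0.19) and BAAT, which conjugates bile acids (-1.71 ± 0.29), fell, as did SLC51B, a subunit of a bile salt exporter (-1.54 ± 0.22). The same list had 9 fallen and 0 risen in siPKCiz.

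Lipid synthesis genes fell in 14 of 30 (46.7%), with a list median of -0.29 and none called as risen by limma (0 at an unadjusted p under 0.05). The count was 8 without treated replicate 2 and 9 without treated replicate 3. ACSS2, which makes acetyl-CoA from acetate, read 747, 668 and 639 in treated cells against 1198, 1147 and 1154 in untreated cells (-0.77 ± 0.12; adjusted p = 0.000276). The fatty acid elongase ELOVL6 read 1760.3, 1226 and 1325 in treated cells against 2265, 2702 and 2510.1 in untreated cells (-0.81 ± 0.12; adjusted p = 0.00024), and SREBF1, the transcription factor SREBP-1, read 459.6, 420.2 and 432 in treated cells against 619.5, 699 and 703 in untreated cells (-0.62 ± 0.083; adjusted p = 6.85e-05). The factor and enzymes known as its targets were thus lower in the same arrays. The cholesterol enzymes TM7SF2 (-0.64 ± 0.10) and MVD (-0.53 ± 0.11) fell too. In siPKCiz 7 of the 30 fell.

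Among 30 PPAR targets and genes of fatty acid oxidation, 3 rose and 3 fell (10.0% each, against 5.17% and 6.18% of all genes). The fallen count was 5 without untreated replicate 1. ANGPTL4 and PDK4, both known as PPAR targets, moved in opposite directions, at 3.02 and -2.69. ACSL1 rose by 0.60 ± 0.10, and PLIN2, a coat protein of lipid droplets, fell to 843, 753 and 799.9 in treated cells, against 1229, 1221 and 1131 in untreated cells (-0.58 ± 0.097). Sphingolipid and prostanoid genes fell in 9 of 24 (37.5%), but in 5 without treated replicate 1, treated replicate 2 or untreated replicate 1. SPHK1, a sphingosine kinase, rose, with 723, 716 and 677 in treated cells against 174, 239 and 250.4 in untreated cells (1.69 ± 0.21; adjusted p = 4.6e-05). HPGD, which breaks down prostaglandins, read 4141, 4444 and 4083 in treated cells against 8254, 8892 and 7404 in untreated cells (-0.95 ± 0.18; adjusted p = 0.00169). The lipid receptor LPAR1 (-0.84 ± 0.15) and thromboxane synthase TBXAS1 (-0.70 ± 0.14) fell.

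NRF2 targets and xenobiotic enzymes fell in 11 of 33 (33.3%) and 1 rose, with 7 fallen without treated replicate 3 or untreated replicate 2. A549 cells are known for high NRF2 activity through loss of its inhibitor KEAP1. GCLC, which starts glutathione synthesis, read 2393, 2513 and 2479 in treated cells against 3598, 4036 and 3016 in untreated cells (-0.52 ± 0.093; adjusted p = 0.000973). The exporter ABCC2 read 3939, 3498 and 3688 in treated cells against 7389, 7226 and 5918 in untreated cells (-0.88 ± 0.18), and CYP4F11 (-0.85 ± 0.16) and AKR1C1 (-0.44 ± 0.076) fell. HMOX1, heme oxygenase, was the member that rose, with 2075, 1684 and 1418 in treated cells against 695, 807 and 780.1 in untreated cells (1.17 ± 0.14; adjusted p = 3.68e-05). The other 21 members were not called, among them GCLM at -0.10. Of 35 genes of amino acid supply and the integrated stress response 2 rose (5.7%) and 4 fell (11.4%), against 5.17% and 6.18% of all genes. The fallen count was 1 without treated replicate 3 or untreated replicate 1, and the risen count 1 without treated replicate 3 or without untreated replicate 2 or 3. The cationic amino acid transporter SLC7A1 rose to 2902, 2751 and 2853 in treated cells, against 1342, 1351 and 1417 in untreated cells (1.05 ± 0.10; adjusted p = 3.28e-06).

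Chemokines, interleukins and their receptors fell in 9 of 44 (20.5%) and rose in 2, with 8 to 11 fallen when 1 array was left out. CXCL1, which attracts neutrophils, read 378, 361 and 518 in treated cells against 1141, 699 and 1034 in untreated cells (-1.18 ± 0.27; adjusted p = 0.00574). TNFSF15 (-1.24 ± 0.20), TNFAIP2 (-0.95 ± 0.12) and the receptor chain CRLF2 (-1.46 ± 0.31) fell. IL11, a cytokine that TGFβ is known to induce, read 2631, 2334 and 2425 in treated cells against 972, 951 and 1119.9 in untreated cells (1.28 ± 0.13; adjusted p = 4.13e-06), and IL1A rose to 412, 349.8 and 385 in treated cells, against 104, 93.8 and 101 in untreated cells (1.94 ± 0.35). Interferon response genes fell in 8 of 34 (23.5%) and rose in 2 (5.9%), against 6.18% and 5.17% of all genes. The risen count was 1 without treated replicate 1 or 2 or untreated replicate 1 or 3. The fallen count was 5 without treated replicate 2 or untreated replicate 3. RIGI, a sensor of viral RNA, read 530.5, 363 and 415 in treated cells against 810.0, 758 and 985 in untreated cells (-0.97 ± 0.16; adjusted p = 0.000404). OAS1 fell by 0.65 ± 0.14 and PARP9 by 0.60 ± 0.12, whereas SAMD9 rose by 0.76 ± 0.10.

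TGFβ is known to arrest many epithelial cells. Of 22 regulators of arrest and apoptosis 5 rose (22.7%) and 4 fell (18.2%), against 5.17% and 6.18% of all genes. The risen count was 3 without untreated replicate 3, and the fallen count 1 or 2 without treated replicate 1 or 3 or without untreated replicate 2 or 3. CDKN1A, the inhibitor p21, read 831, 876 and 858 in treated cells against 423, 567 and 610.2 in untreated cells (0.70 ± 0.14; adjusted p = 0.0025). GADD45B read 767, 840.0 and 785 in treated cells against 300.4, 360.3 and 353 in untreated cells (1.24 ± 0.18), and DAPK1, a kinase that promotes cell death, fell to 871, 619 and 884 in treated cells, against 1779.8, 1907 and 1744 in untreated cells (-1.21 ± 0.16; adjusted p = 7.37e-05). CDKN2B, CDKN1C, CDC25A and GADD45A were not called, at 0.0316, -0.0145, 0.0750 and 0.0628. CDKN1A was not called in siPKCiz at 8 h (0.38) or in siControl at 24 h (0.35). Of 40 genes of the cell cycle and DNA replication 2 rose (5.0%) and 1 fell (2.5%), near the background, with a list median of -0.09. When 1 array was left out, 1 or 2 rose and 0 or 1 fell. CCND1, cyclin D1, rose by 0.47 ± 0.11. Without replicate number 1 of every group 12 of the 40 fell and 1 rose.

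Histone demethylases, mostly of the JmjC class, rose in 10 of 22 (45.5%) and 1 fell (0 without treated replicate 2 or 3 or any 1 of the untreated replicates), with a list median of 0.19. The risen count was 4 or 5 without treated replicate 1 or 3 or without any of the untreated replicates. The 3 largest rises did not depend on 1 array. KDM6B, which removes a repressive methyl mark from histones, read 1769, 1514 and 1637 in treated cells against 400.4, 508 and 549.6 in untreated cells (1.76 ± 0.28; adjusted p = 0.000358). KDM7A read 596, 791 and 811 in treated cells against 264, 266 and 317 in untreated cells (1.37 ± 0.25; adjusted p = 0.00124), and KDM3A rose by 0.58 ± 0.083. In siPKCiz 2 of the 22 rose. Of 17 clock genes 2 rose and 2 fell (11.8% each, against 5.17% and 6.18% of all genes). The risen count was 1 without any 1 of the arrays other than untreated replicate 1, and the fallen count 1 without treated replicate 3 or untreated replicate 1 or 2. CRY1 read 1258, 917 and 1051 in treated cells against 639, 628 and 586 in untreated cells (0.79 ± 0.12; adjusted p = 0.000181), and PER2 read 392, 357 and 378 in treated cells against 1003, 629.8 and 702 in untreated cells (-1.02 ± 0.25; adjusted p = 0.0112; -0.82 and not called without untreated replicate 1).

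**Figure D4:**
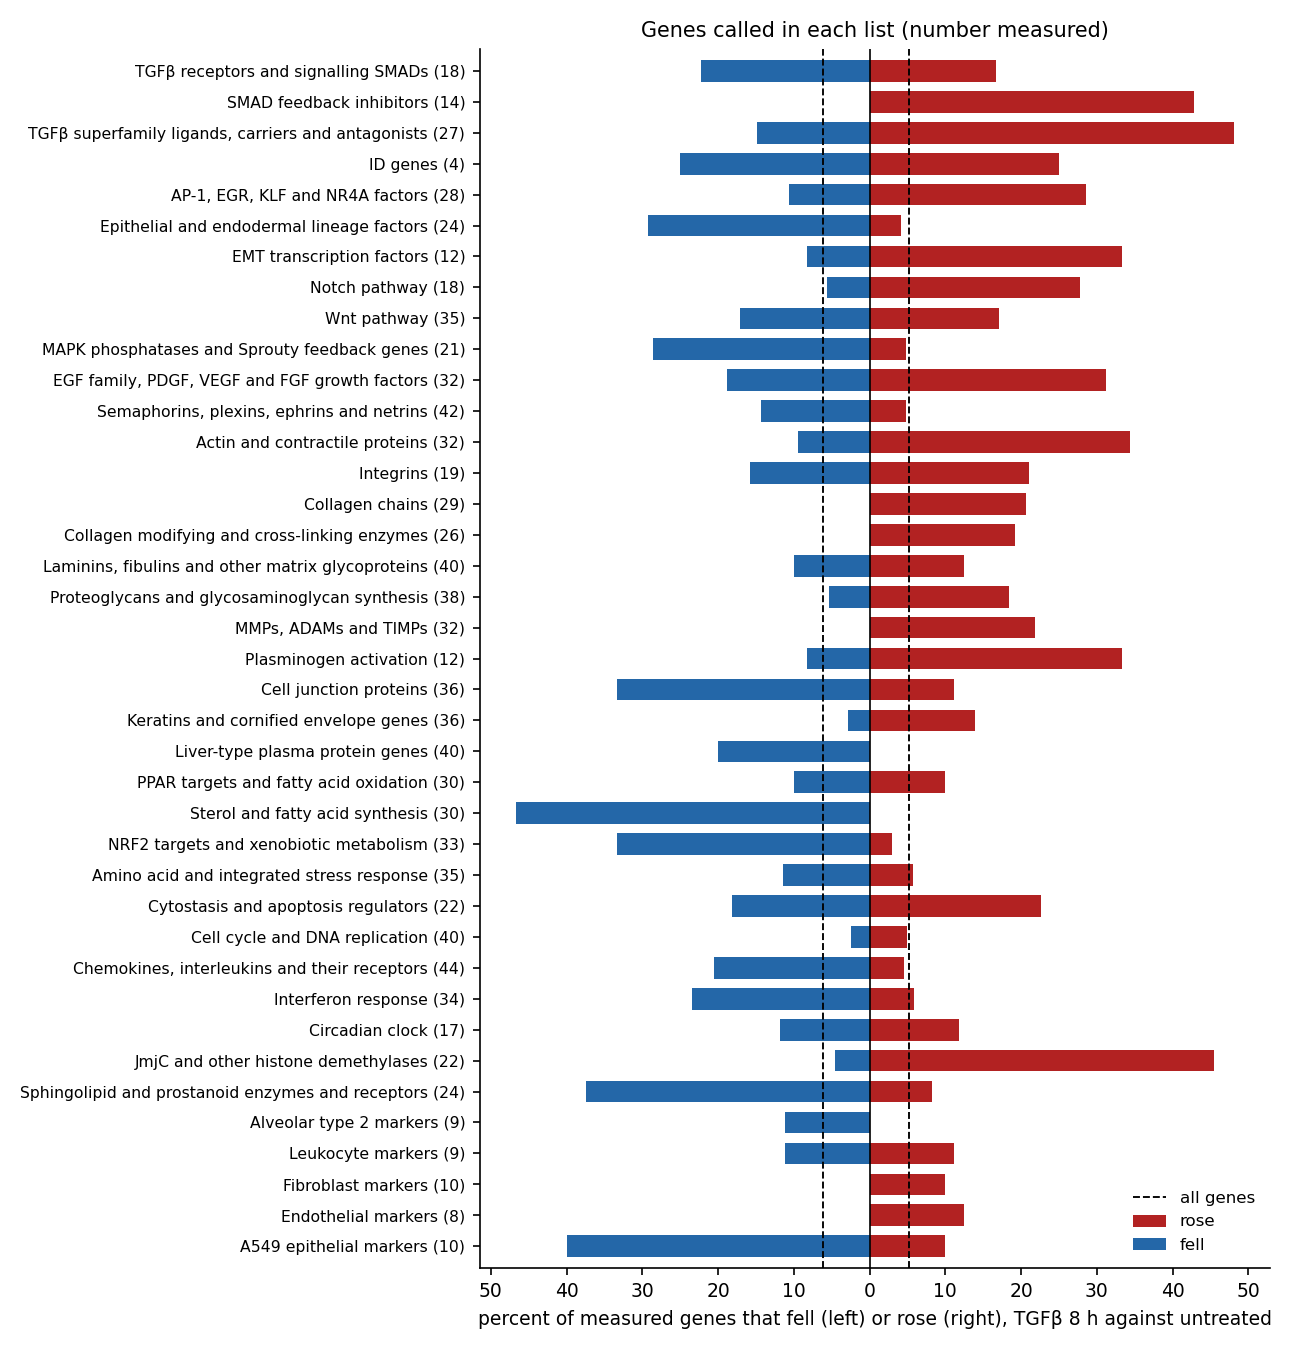
Percent of the measured genes of each of 39 lists (number measured in parentheses) that rose (red, to the right) or fell (blue, to the left) at 8 h of TGFβ against untreated in siControl; dashed lines mark the percentages over all genes, 5.17 and 6.18. The superfamily ligands (48.1), JmjC demethylases (45.5) and SMAD feedback inhibitors (42.9) reach furthest to the right, and sterol and fatty acid synthesis (46.7) furthest to the left.

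Of 173 miRNA genes on the array 8 rose, a share below the 5.17% of all genes. None was called as fallen by limma (0 at an unadjusted p under 0.05). The risen count was 5 without untreated replicate 1 and 4 without untreated replicate 2. Their probe sets read the hairpin or its host transcript, not the mature miRNA. For the 3 whose call held with any 1 array left out, the mature strands in RefSeq (GRCh38.p14) are given with the seed, bases 2 to 8, in capitals, since the seed sets which transcripts a miRNA can pair with.
miR-24-3p (chr19:13836289-13836310, minus strand): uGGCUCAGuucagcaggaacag
miR-24-2-5p (chr19:13836326-13836347, minus strand): uGCCUACUgagcugaaacacag
miR-382-5p (chr14:101054316-101054337, plus strand): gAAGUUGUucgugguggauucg
miR-382-3p (chr14:101054352-101054372, plus strand): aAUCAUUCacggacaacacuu
miR-154-5p (chr14:101059769-101059790, plus strand): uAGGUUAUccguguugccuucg
miR-154-3p (chr14:101059805-101059826, plus strand): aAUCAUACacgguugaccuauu
No seed is shared among these 6 strands. MIR24-2 read 109.3, 170.8 and 152.7 in treated cells against 80.0, 74.6 and 79.1 in untreated cells (0.86 ± 0.16; adjusted p = 0.00165), MIR382 read 104.7, 128.1 and 113.6 in treated cells against 83.3, 60.2 and 73.0 in untreated cells (0.69 ± 0.13), and MIR154 read 135.7, 164.3 and 114.2 in treated cells against 87.3, 84.4 and 91.9 in untreated cells (0.64 ± 0.13). In siPKCiz none of the 3 was called. All 3 were dim: apart from 170.8 for MIR24-2 and 164.3 for MIR154, every value lay below the array medians of 156.1 to 160.7. With dim genes left out, 36 of the 173 miRNA genes stayed, and 4 of those rose. The other 5 were MIR31, MIR21, MIR503, MIR181B1 and MIRLET7E, with changes from 0.62 to 0.34 and a call that at least 2 left-out arrays removed for each.

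MIR382 and MIR154 lie in the imprinted interval from DLK1 to DIO3 on chromosome 14, where the noncoding RNA MEG3, box C/D snoRNAs and many miRNAs are transcribed in 1 direction from the maternal copy. The interval was chosen after its values were seen, and its genes may share transcripts, so its counts are a description. Of 27 genes measured there 9 rose and 0 fell by limma (1 lower at an unadjusted p under 0.05, DLK1). Over all genes 5.17% rose and 6.18% fell. Without treated replicate 1 the risen count was 5, and 1 was called as fallen without treated replicate 3 or without untreated replicate 2 or 3. MEG3 read 438.6, 555.8 and 417.3 in treated cells against 210.9, 249.6 and 231.6 in untreated cells (1.02 ± 0.14; adjusted p = 9.55e-05). SNORD114-2 read 126.8, 146.1 and 125.4 in treated cells against 58.9, 71.1 and 80.1 in untreated cells (0.93 ± 0.11; adjusted p = 3.49e-05), and SNORD113-3 read 151.4, 163.6 and 146.7 in treated cells against 99.9, 92.9 and 103.1 in untreated cells (0.64 ± 0.13). Every SNORD114-2 and RTL1 value lay below the array medians of 156.1 to 160.7. With dim genes left out, 6 of the 27 interval genes stayed, and 4 of those rose. Of the 6 snoRNAs in the interval 5 rose, but 2 without treated replicate 1 and 3 without treated replicate 2 or without untreated replicate 1 or 3. Of the 169 snoRNAs measured elsewhere 0 rose by limma (11 higher at an unadjusted p under 0.05), but 6 without treated replicate 3 and 1 without treated replicate 2 or untreated replicate 2. DLK1, transcribed from the paternal copy, read 87.7, 95.4 and 104.4 in treated cells and 145.8, 109.7 and 108.7 in untreated cells, and was not called (-0.33 ± 0.11; adjusted p = 0.0516), and DIO3 was at -0.08 ± 0.11. RTL1, a coding gene also known to be expressed from the paternal copy, rose by 0.40 (adjusted p = 0.0244), a call lost without treated replicate 1 or 2 or untreated replicate 1 or 3. At 24 h, against the same untreated arrays, MEG3 was at 1.04, SNORD114-2 at 1.24 and SNORD113-3 at 1.12, and in siPKCiz at 8 h they were at 0.42, 0.53 and 0.67, of which the change of MEG3 was not called.

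**Figure D5:**
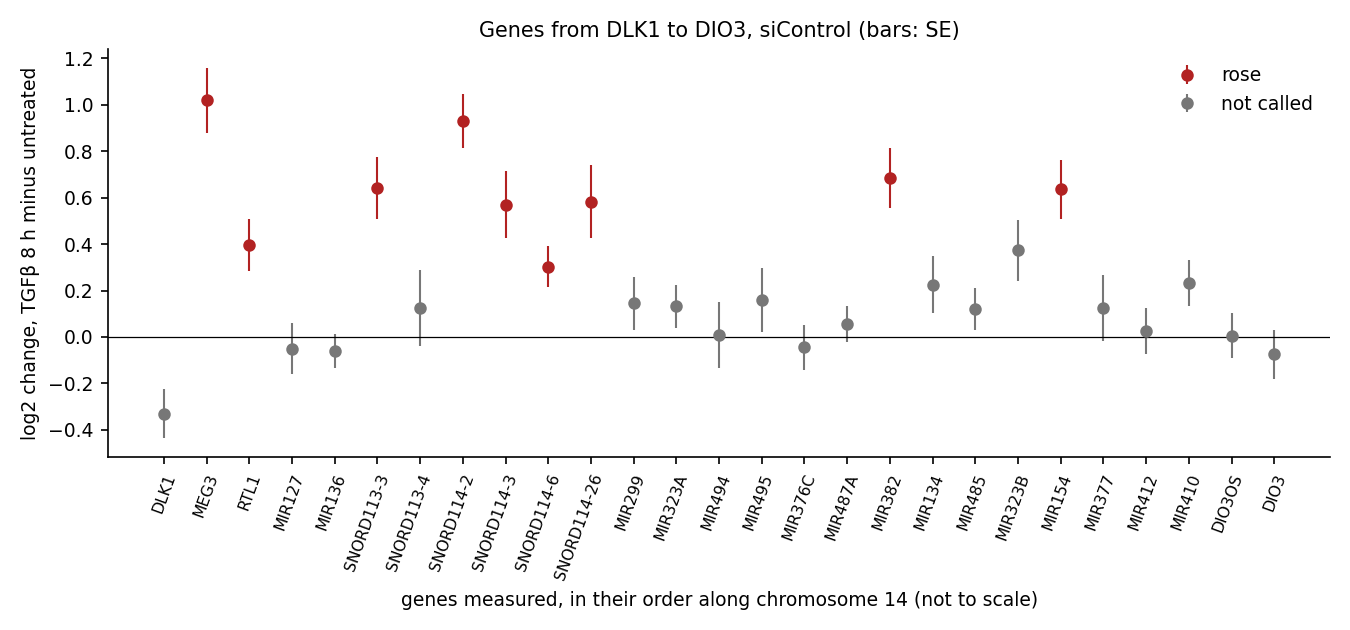
Log2 change (y axis, TGFβ 8 h minus untreated, siControl; bars are SE) of the 27 genes measured from DLK1 to DIO3, in their order along chromosome 14 (x axis, not to scale); red points rose and grey points were not called. MEG3 (1.02) and SNORD114-2 (0.93) stand highest, and the genes at both ends, DLK1 (-0.33) and DIO3 (-0.08), were not called.

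Of 631 long noncoding RNAs 10 rose and 18 fell, smaller shares than the 5.17% and 6.18% of all genes. The counts were 4 risen and 10 fallen without treated replicate 1 and 5 risen and 10 fallen without untreated replicate 2. LINC00312 read 377.8, 306.6 and 354.1 in treated cells against 145.6, 145.6 and 154.3 in untreated cells (1.22 ± 0.19; adjusted p = 0.000253), and MIR22HG, a miRNA host transcript, read 502.1, 519.2 and 542.7 in treated cells against 305.1, 280.6 and 301.0 in untreated cells (0.82 ± 0.14). BASP1-AS1 fell to 148.0, 158.5 and 156.9 in treated cells, against 351.5, 354.8 and 397.9 in untreated cells (-1.25 ± 0.14; adjusted p = 1.59e-05).

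The arrays of control cells collected at 24 h share the untreated arrays with the 8 h comparison, so the changes at both times are set side by side without a test. ANGPTL4 was at 3.02 at 8 h and 1.48 at 24 h, MXD1 at 1.82 and 1.19, VEGFA at 1.49 and 0.92, JUN at 1.15 and 0.66, ID1 at 0.76 and 0.33, and CRY1 at 0.79 and 0.04. These 6 genes had the larger value at 8 h. Matrix and protease genes were found on both sides. COL4A1 was at 1.54 at 8 h and 2.27 at 24 h and MMP2 at 1.86 and 2.89, while COL27A1 was at 0.68 and 0.37, LOXL1 at 0.43 and 0.23 and CHST11 at 1.17 and 0.90, and COL1A1 was at 1.17 and 1.19. SLN was at 1.97 and 3.67, LCE3D at 2.77 and 4.22 and LCE3E at 1.48 and 3.31. SNAI2 was at 1.98 and 1.95, TGFBR1 at 0.81 and 1.38, and TGFBR2 at -0.94 and -0.69. Among falling genes CDH1 was at -0.96 at 8 h and -1.62 at 24 h, and AGR2 at -1.42 and -2.85, whereas PDK4 was at -2.69 and -2.51 and SOX2 at -2.12 and -1.40. EPCAM, not called at 8 h, was at -0.53 at 8 h and -1.23 at 24 h.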

How the data were processed

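RNA of A549 cells was measured on 18 whole-transcript arrays in 6 groups of 3. The authors deposited linear intensity values of 28869 probe sets, and the tools Partek and RMA are named per the submitters' processing notes; further settings are not given in the sources used here. Values were turned to log2 once, without further normalization. A probe set with 1 symbol stood for a gene, the brightest where a gene had several, which gave 18377 genes from 19310 probe sets. No column was left unmapped (0). Array medians were 156.1 to 160.7, and 3 arrays per group limit the precision.

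All 18 arrays entered 1 model with a mean per group (6 means; limma 3.58.1, run in R 4.3.3), with Benjamini-Hochberg adjustment over all genes, and the model was tested on simulated data. The p-values measure the spread between these samples, which may be technical. Named genes were the 25 highest and 25 lowest called genes without overlap of the arrays, up to 6 called and 4 uncalled members of each of 39 lists, and pathway anchors; the noncoding genes and those marked in the text were chosen after their values were seen. The members and lists were chosen with earlier results of these data known, so no list count is independent support. Promoter and miRNA sequences are from RefSeq (GRCh38.p14). The alternatives tried were a replicate block, the 6 arrays alone, a filter on dim genes, trend and robust moderation, quantile normalization, array weights, centring on the median, single probe sets and arrays left out. Some items are not reported here.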

Additional observations from a re-analysis of the deposited data

Results flagged for a closer look

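Probe sets with no single gene symbol (9559) are outside the comparison by gene. In the same contrast 77 of them rose (0.806%) and 66 fell (0.69%) at 8 h of TGFβ against untreated, with log2 changes of up to 1.92 and down to -1.68. A change of at least 2-fold was seen in 21 risen and 6 fallen ones. They are given as counts, since the table names no single gene for them.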

How the results depend on the processing

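Under 7 of the 8 other settings of the fit, the called count lay within 1.5 times the reported 2087. It was 1734 with a replicate block (804 risen, 930 fallen), 1732 with only the 6 arrays, 2167 of 11425 genes without dim genes, 2257 after quantile normalization, 2027 after median centring, 2076 with trend and robust moderation and 2127 over single probe sets. With array weights it was 3485, with 2087 fallen, and 1871 were called in siPKCiz; the cause was not tested. Deviations of same-numbered treated and untreated arrays correlated at -0.33, 0.01 and -0.19, so no pairing by replicate number was seen between these groups. The other groups were not checked in this way. With 1 array left out the count was 1584 to 1811 (682 to 894 risen, 771 to 1096 fallen). Without a replicate number in every group it was 681 to 2917 (390 to 1049 risen, 291 to 1868 fallen). Of 4379 values of the 259 genes named, 4147 kept their direction and side of the threshold, 184 lost and 34 gained a call, and 14 changed sign. Those 14 belong to 6 genes not called as reported. FN1 was at 0.043 and KRT18 at 0.024 with array weights. With arrays or a replicate number left out FN1 lay between -0.228 and 0.059, KRT18 between -0.098 and 0.025, DIO3 between -0.25 and 0.087, ACTG1 between -0.054 and 0.096, GLI1 between -0.143 and 0.027, and HHIP between -0.192 and 0.075. Of 1326 list counts 1050 stayed within 1.5 times. Among noncoding RNAs, 20 of 173 miRNAs rose, and 20 long noncoding RNAs rose and 41 fell, with array weights; 6 long noncoding RNAs rose and 11 fell with a replicate block; 4 of the 6 interval genes left rose without dim genes; and 2 snoRNAs outside the interval rose after quantile normalization or with array weights.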

Other observations

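Several groups outside the lists were looked at after their values were seen. PTCH1, the receptor and a known target of Hedgehog signalling, read 338, 306 and 346 in treated cells against 841, 765 and 825 in untreated cells (-1.30 ± 0.19; limma, adjusted p = 0.000184), while GLI2, a transcription factor of the pathway, read 982, 886 and 986 in treated cells against 611, 701 and 690.0 in untreated cells (0.51 ± 0.11). Of the other Hedgehog genes looked at, GLI1 and HHIP, also known targets, and SMO and SUFU were not called, at -0.08, -0.05, -0.17 and 0.21. Both kinin receptors fell: BDKRB1 read 615, 489.9 and 643 in treated cells against 1609, 1088 and 1569.8 in untreated cells (-1.28 ± 0.19), and BDKRB2 read 295, 209 and 248 in treated cells against 595, 522 and 694 in untreated cells (-1.27 ± 0.18). AHR, the aryl hydrocarbon receptor, read 1235, 1244 and 1226 in treated cells against 3165, 2541 and 2777 in untreated cells (-1.19 ± 0.18). Of its known targets TIPARP rose by 0.51 ± 0.12. CYP1B1 read 313, 269 and 253 in treated cells against 655, 649.5 and 528 in untreated cells (-1.13 ± 0.29; limma, adjusted p = 0.0141), a call lost without treated replicate 3 or untreated replicate 1 or 2, and CYP1A1 was not called, at 0.11.

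Of 27 HOX genes measured 2 rose, HOXD10 and HOXD11, and 5 fell, HOXA2, HOXB5, HOXB6, HOXB8 and HOXC13. The call of HOXB5 was lost without treated replicate 3 or untreated replicate 3. The shares over all genes were 5.17% risen and 6.18% fallen. HOXD9 and HOXB9 were among the 20 not called, at 0.20 and 0.26. HOXD10 read 1164, 1051 and 1027 in treated cells against 236, 432 and 386 in untreated cells (1.67 ± 0.18; limma, adjusted p = 1.16e-05), and its neighbour HOXD11 read 292, 249 and 285 in treated cells against 116, 144 and 141 in untreated cells (1.04 ± 0.089). HOXB8 read 289.7, 316 and 277 in treated cells against 715, 599.7 and 806 in untreated cells (-1.26 ± 0.12; limma, adjusted p = 2.45e-06). In siPKCiz PTCH1, GLI2, BDKRB1, BDKRB2, AHR, TIPARP, HOXD10, HOXD11 and HOXB8 were called in the same direction, and CYP1B1 was not called there. PRKCI, the gene of PKCiota, was not called in siControl, with 2804, 2818 and 2545 in treated cells and 2469, 2163 and 2095 in untreated cells (0.28 ± 0.09; limma, adjusted p = 0.0515).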
